A study of Homo sapiens with 8 samples.

Results

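Cells given a ligand before ionizing radiation were compared with cells given radiation alone. The members are the arrays whose titles name both treatments and the arrays whose titles name radiation only, 4 of the 8 arrays of the series. Gene expression was measured in HEK cells, a human embryonic kidney line, on a pair of oligonucleotide chips called A and B that carry different probes. The treatments were none, a DNA minor groove binding ligand at 50 µM, radiation at 2 Gy, and the ligand at 50 µM given 1 h ahead of 2 Gy. Cells were plated 24 h beforehand and RNA was prepared after 4 h of incubation. The labels name neither the ligand nor the subline of HEK cells, and they do not say whether the 4 h run from the ligand or from the radiation. The array of the cells given both agents is called the combined array here. The untreated and ligand arrays of each chip served for normalization and to show where a probe's level lay without radiation. They also entered the choice of probes with a number on every array and side comparisons between arrays.

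Ligands of the minor groove of DNA differ in the sequences they prefer, many of them AT-rich stretches, and some are known to change how much damage radiation does to the DNA. Ionizing radiation breaks DNA strands, and cells answer within hours by stabilising the transcription factor p53 and by halting the cell cycle. The comparison addresses whether transcript levels in irradiated cells differ when the ligand was there first.

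Each treatment was hybridised on 1 array per chip, so no difference here has a replicate check, an error or a p-value. RNA came from whole cultures, so a difference in some cells and a smaller one in all cells cannot be told apart. No table analysed here links the probe IDs to genes, so the genes, the lists of damage-response genes, the markers of the cell line and the probe sequences were not analysed here. Of 39400 probes, 39395 had a number on every array of their chip. For 4 of the 5 others the missing spot was on a radiation array, 1 on chip B and 3 on chip A, and for the fifth on the untreated array of chip A. The combined array read 275.3 for the probe of chip B and 53.9 to 150.3 for the 4 of chip A. Median intensity was 213 on the radiation array and 225 on the combined array of chip B. On chip A it was 34.5 on the radiation array and 166 on the combined array, so unscaled log2 intensities differed by a median of 2.26 there and of 0.0616 on chip B. The dim radiation array of chip A held 912 distinct intensities, all multiples of 0.5, against 14407 on the combined array of that chip and 17232 and 19054 on the compared arrays of chip B. A step of 0.5 at its median is 0.0208 log2 units. For these reasons chip B is described first.

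On chip B most probes lay close together on the compared arrays. After quantile normalization of log2 intensities the difference, combined minus radiation, had a median of -0.0358 and an SD over 19699 probes of 0.412 log2 units, and 81.8% of the probes lay within 0.5. A probe was counted past a threshold of 2-fold by its size alone, without a test. By this rule 336 probes were higher on the combined array and 152 lower. These are 1.71% and 0.772% of all probes, and 68.9% of the probes past the threshold were higher. At 4-fold 6 probes (0.0305%) were higher and 16 (0.0812%) lower, and at 8-fold 4 (0.0203%) were higher and 6 (0.0305%) lower. The threshold is 1 log2 unit, and no gap in the values marked it: on the high side the nearest 5 probes past it lay at up to 1.002 and the nearest 5 short of it at 0.998 or more.

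**Figure D1:**
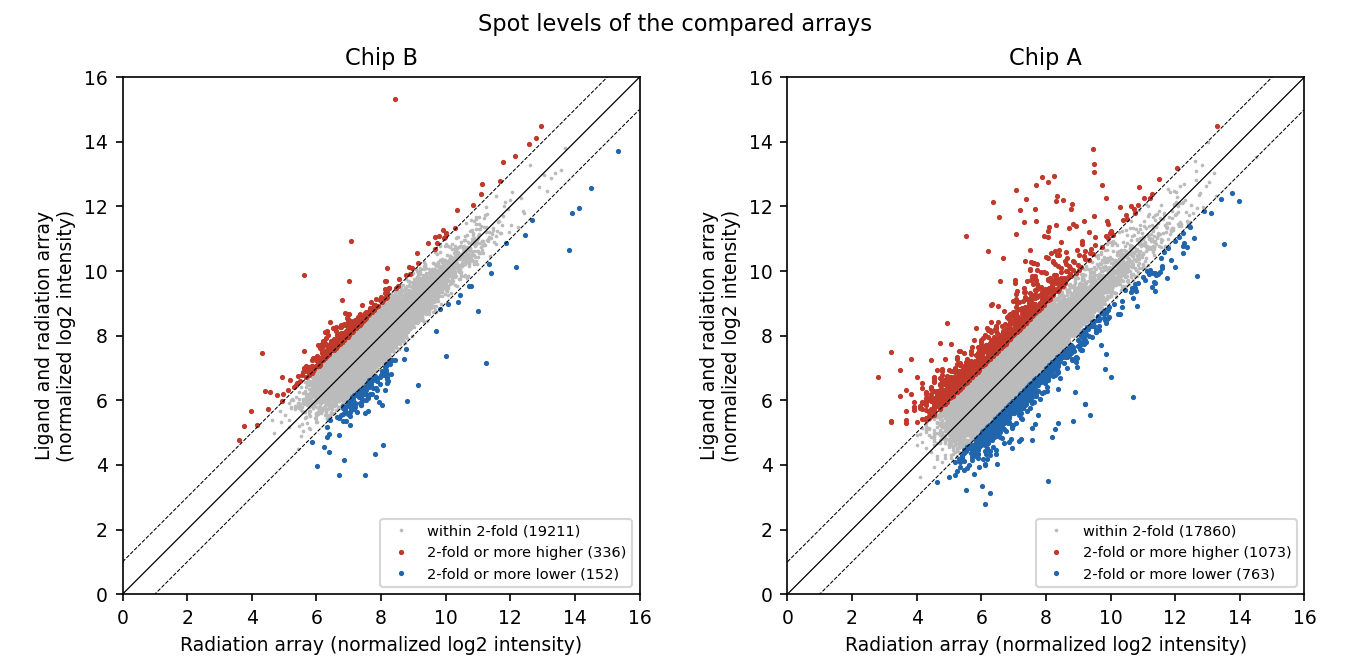
Each point is 1 probe, with its normalized log2 intensity on the radiation array (horizontal) and on the ligand and radiation array (vertical) of the same chip. The solid line marks equal levels and the dashed lines 2-fold differences. On chip B 336 probes lie above the upper dashed line and 152 below the lower one, and on chip A 1073 and 763.

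The 2-fold lower probes of chip B were dim mainly on the combined array. Their median normalized log2 level was 6.22 there and 7.57 on the radiation array, against 7.73 and 7.75 for probes within 2-fold. Choosing probes for a 2-fold difference favours a dim spot on 1 of the arrays, so the shares that follow are partly set by the rule. On at least 1 of the compared arrays the spot was among the dimmest 10% for 115 of the 152 lower probes (75.7%) and for 162 of the 336 higher ones (48.2%), against 14.8% of all probes. With such spots left out, a filter chosen after seeing the data, 174 probes were higher and 37 lower (1.04% and 0.22% of the 16786 left). No background value was used here, so the size of a difference that ends in a dim spot cannot be told from the floor of the array.

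Differences that held at 2-fold under quantile normalization, median scaling and cyclic loess on chip B were 252 higher (1.28% of all probes) and 136 lower (0.690%). Of these, 109 higher probes (0.553% of all) and 16 lower probes (0.0812%) also had a mean level above the chip's median and a spot above the dimmest 10% on both compared arrays. The differences left by these conditions were mostly small. The smallest of the 3 scaled differences had a median of 1.14 log2 units for the higher and 1.42 for the lower probes, and only 4 of the higher and 4 of the lower reached 4-fold under all 3 scalings. At 8-fold 2 higher and 1 lower were left, so the larger number of lower probes at 4-fold and 8-fold was not seen among these.

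The highest of them on chip B was obshum40K:B#29304. Its deposited intensity was 369.3 in untreated cells, 413.9 with the ligand, 336.9 after radiation and 135556 after the combined treatment. A single array carried the whole difference, which was 6.89 log2 units after quantile normalization, 8.57 under median scaling and 8.42 under cyclic loess. The spot was the brightest of all 8 arrays, on none of which any other probe exceeded 38953, and the next brightest spot of the same array read 28930. The second was obshum40K:B#11667, which read 90 in untreated cells, 91.07 with the ligand, 139.8 after radiation and 2037 after the combined treatment, a difference of 3.87 log2 units. It was again the combined array that stood apart. On the radiation array 19% of the spots were dimmer than this probe.

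The lowest probe on chip B was obshum40K:B#42811. It read 154.4 in untreated cells, 162.1 with the ligand, 1999 after radiation and 152.2 after the combined treatment. Here the radiation array stood apart, and the combined array lay beside the untreated and ligand arrays. The difference was -4.08 log2 units after quantile normalization and -3.79 under both other scalings. The other, obshum40K:B#44618, was among the brightest spots of its chip, with 11296 in untreated cells, 16459 with the ligand, 10640 after radiation and 1687 after the combined treatment. Its normalized log2 levels were 12.96, 13.92, 13.82 and 10.66 in the same order, a difference of -3.16 log2 units between the compared arrays. It was lowest on the combined array, where 99.2% of the spots were still dimmer.

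**Figure D2:**
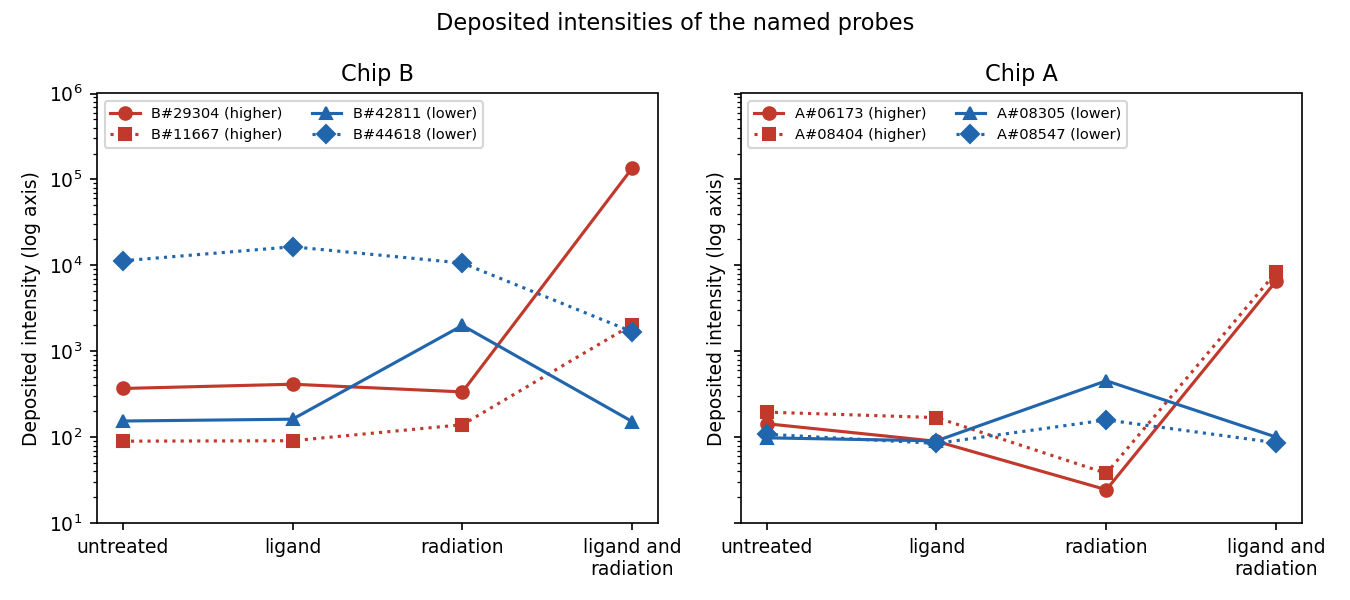
Deposited intensity (log axis) of the 4 named probes of each chip on the untreated, ligand, radiation, and ligand and radiation arrays, with 1 array per point and lines that only join the points of a probe. Probes higher on the combined array are red and probes lower on it blue. The red probes and B#44618 depart on the combined array, and the other blue probes on the radiation array. For A#08547 this is plain only after scaling, since its 159 on the radiation array stands against a median of 34.5 there and its 108.2 in untreated cells against 219.

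Where the untreated and ligand arrays lay tells which array of the pair carried a difference, and the 2-fold rule used those arrays only through the normalization. On chip B the combined array carried more of the higher probes. For 215 of 336 (64.0%) both unirradiated arrays lay nearer to the radiation array, and for 41 (12.2%) both lay nearer to the combined array. Among the 19211 probes within 2-fold these shares were 41.2% and 27.4%. Median normalized log2 levels of the higher probes were 7.16 in untreated cells, 7.13 with the ligand, 6.82 after radiation and 8.06 after the combined treatment. For the lower probes the radiation array was more often the one apart: both unirradiated arrays lay nearer to the combined array for 80 of 152 (52.6%) and nearer to the radiation array for 29 (19.1%). Their median levels were 6.65, 6.76, 7.57 and 6.22 in the same order. A full 2-fold gap to every other array was less common. For the 336 higher probes the combined array stood at least 2-fold above the other 3 for 68, and the radiation array that far below for 16. For the 152 lower ones the radiation array stood that far above the other 3 for 43, and the combined array that far below for 13. Of the 16 lower probes left by the conditions on scaling and level, both unirradiated arrays lay nearer to the combined array for 8 and to the radiation array for 4. A 2-fold gap set the radiation array apart for 6 of the 16 and the combined array for 5. For the 109 higher ones the combined array was so apart for 31 and the radiation array for 5.

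**Figure D3:**
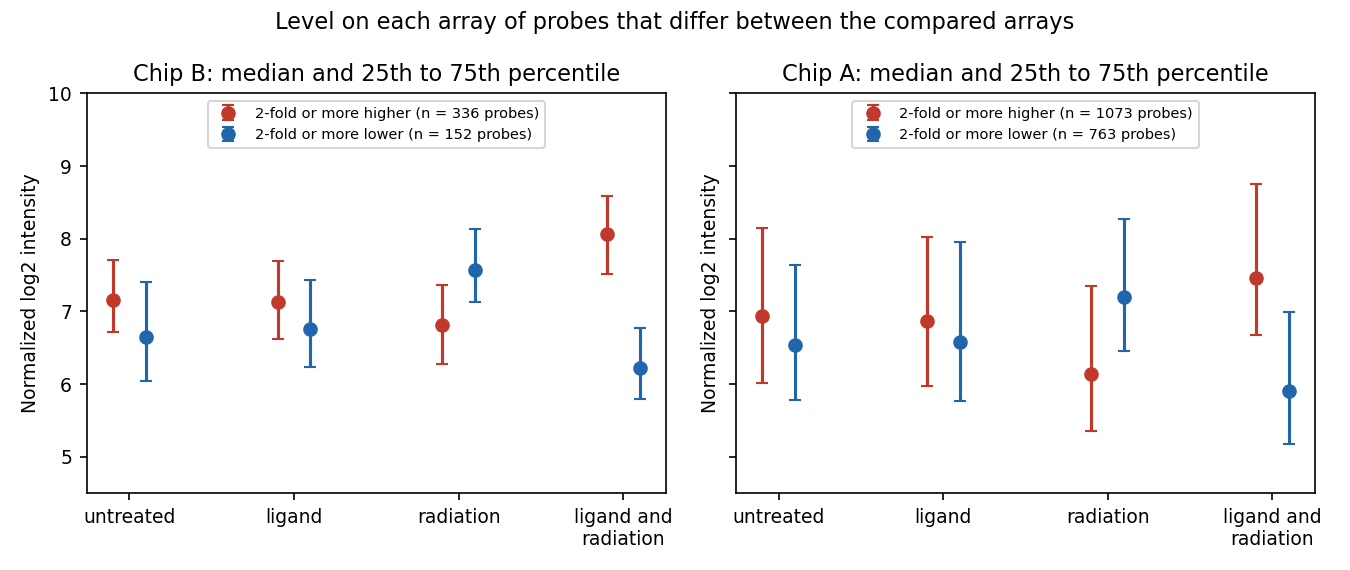
Median (point) and 25th to 75th percentile (bar) over probes of the normalized log2 intensity on each array, for probes 2-fold or more higher (red) or lower (blue) on the ligand and radiation array than on the radiation array. The gap between the 2 right-hand positions of each panel follows from how the probes were chosen. On chip B the untreated and ligand medians of the higher probes (7.16 and 7.13) lie nearer to radiation (6.82) than to the combined array (8.06), and on chip A (6.94 and 6.87) they lie nearer to the combined array (7.46) than to radiation (6.14).

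On chip A, with its dim radiation array, the same comparison gave more than 3 times as many probes past 2-fold. The difference had a median of -0.0425 and an SD over 19696 probes of 0.628 log2 units. The combined array was 2-fold or more above the radiation array for 1073 probes (5.45%) and below it for 763 (3.87%). At 4-fold 114 (0.579%) were higher and 37 (0.188%) lower, and at 8-fold 36 (0.183%) and 12 (0.0609%). A spot among the dimmest 10% was involved for 38.1% of the higher and 43.3% of the lower probes, against 15.9% of all probes. These shares too are partly set by the 2-fold rule. Under all 3 scalings 916 (4.65%) were higher and 475 (2.41%) lower. The same conditions on level as on chip B left 481 higher (2.44%) and 203 lower (1.03%) probes, with medians of 1.32 and 1.19 log2 units for the smallest of the 3 scaled differences. Of these, 79 higher and 9 lower probes reached 4-fold under all 3 scalings.

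On chip A the unirradiated arrays lay differently, also for the probes within 2-fold. Both were nearer to the combined array for 500 of the 1073 higher probes (46.6%) and nearer to the radiation array for 336 (31.3%). The probes within 2-fold gave 41.0% and 31.5%. The dim radiation array stood at least 2-fold below the other 3 for 268 of the higher probes, and the combined array that far above the other 3 for 185. For the 763 lower probes both unirradiated arrays were nearer to the radiation array in 38.8% and nearer to the combined array in 29.2%. A full 2-fold gap did not follow this order. The radiation array stood that far above the other 3 for 100 of them, and the combined array that far below for 89. Under median scaling the order of nearness turned for the lower probes, with 31.8% nearer to the radiation array and 38.2% to the combined array, of 537. These shares lay near the 31.0% and 39.7% of the probes within 2-fold under that scaling.

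The highest named probe of chip A, obshum40K:A#06173, read 143.6 in untreated cells, 89.66 with the ligand, 24.5 on the dim radiation array and 6589 on the combined array. The difference was 5.77 log2 units, and normalized levels on the other arrays were 6.33, 6.12 and 6.36 against 12.13 on the combined array. The next, obshum40K:A#08404, read 196, 169.4, 38 and 8336 in the same order and differed by 5.42 log2 units. Both were bright on the combined array alone. The lower probes departed on the radiation array. The intensity of obshum40K:A#08305 was 98.4 in untreated cells, 90.76 with the ligand, 454 on the radiation array and 100.3 on the combined array, a difference of -4.60 log2 units. For obshum40K:A#08547 the intensities were 108.2, 84.82, 159 and 86.29, and the difference was -3.35. The radiation array's 454 and 159 stand against a median of 34.5 on that array. On the combined array 20.9% and 13.9% of the spots were dimmer than these probes.

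Many of the probes that were far brighter on the combined array of chip A than on its other arrays lay close together in the order of probe IDs. On that array 40 probes stood at least 4-fold above each of the other 3 arrays, and 28 of them had another of the 40 within 20 probes in that order. At 8-fold the numbers were 14 of 26, which formed 6 groups of 2 or 3. Within those groups 60 further probes lay between the bright ones, and 51 of these differed by less than 2-fold between the compared arrays. Of the other 9, or 15.0% of the 60, 2 were higher and 7 lower on the combined array, against 9.32% of all probes of chip A past 2-fold in either direction. The 26 probes read 1849 to 12366 on the combined array, where at least 98.3% of the spots were dimmer than each of them. They read 104 to 1296 on the untreated, 89.7 to 1202 on the ligand and 14.5 to 193 on the radiation array. Their differences were 3.11 log2 units or more, so all 26 are among the 36 probes of chip A counted as 8-fold higher. None of the 26 intensities on the combined array was a multiple of 0.5, against 28.3% of all probes of that array. On the untreated array 6 of the 26 were, against 24.3% of all probes there. These shares cover spots of every level, and the share among equally bright spots was not computed. Sets of probes that stood 4-fold above or below the rest on one of the other arrays of chip A held 1 to 24 probes, and at most 2 of any set had another of it within 20 probes. On chip B the combined array had 3 probes 4-fold above the rest, none near another. The part of array layout in this was not tested, since the place of each probe on the chip was not analysed here.

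Differences past 2-fold followed spot level on both chips. When the probes of a chip were divided into 10 equal bins by the mean level of the compared arrays, 7.11% of the dimmest bin of chip B passed 2-fold, with 72 higher and 68 lower. The share went down to 0.812% in the ninth bin, with 15 higher and 1 lower, and was 2.74% in the brightest, with 34 higher and 20 lower. On chip A 18.0% of the dimmest bin, 5.23% of the seventh and 14.4% of the brightest passed. The excess of higher probes on chip B came almost wholly from bins 2 to 10, since the dimmest bin was nearly even. In the brighter 50% of the probes, 1.23% were higher and 0.274% lower on chip B, and 5.16% and 3.12% on chip A. Median differences of the bins ranged from -0.066 to -0.025 on chip B and from -0.126 to 0.004 on chip A.

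**Figure D4:**
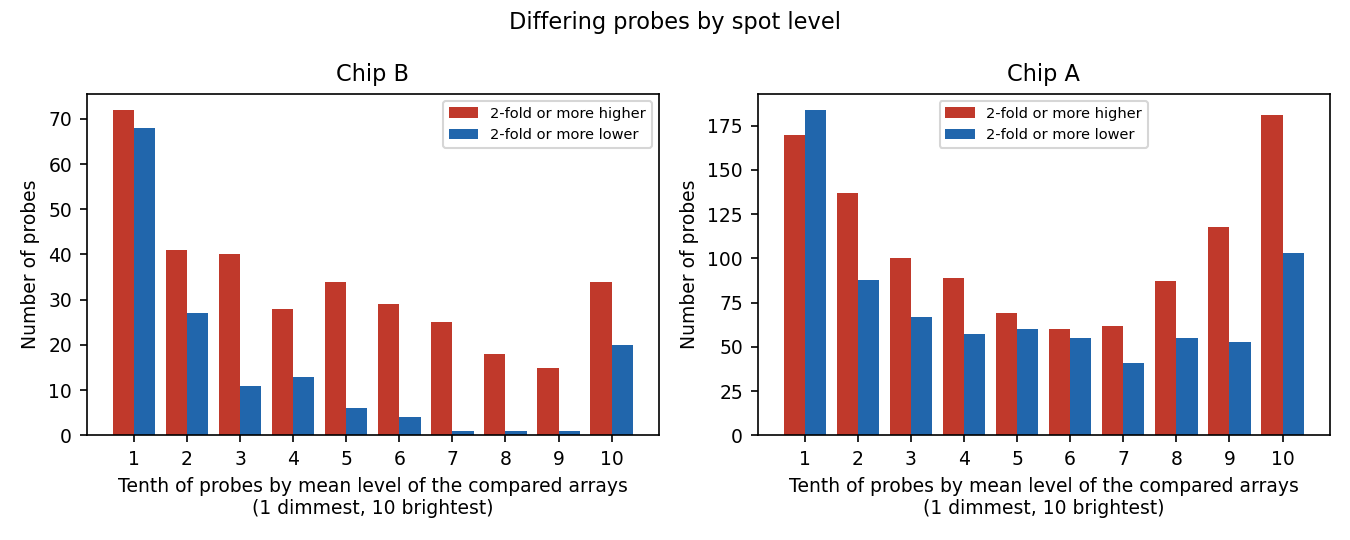
Number of probes 2-fold or more higher (red) or lower (blue) on the ligand and radiation array than on the radiation array, in 10 bins of equal size by the mean normalized level of the compared arrays, from dimmest to brightest. On chip B the counts are 72 and 68 in the dimmest bin and 15 and 1 in the ninth, and on chip A 181 and 103 in the brightest.

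Neighbours in probe-ID order also shared part of their difference on chip B. Over its 19699 probes the difference of a probe correlated with that of the next at r = 0.188, with a mean of 0.182 over distances of 1 to 10 probes and -0.057 at 100 probes. These probes share the same arrays and are not independent. The combined array showed it most: its deviation from the mean of the other 3 arrays had a mean r of 0.178 over the same distances, against 0.0960 for the radiation, 0.0527 for the ligand and 0.0351 for the untreated array. On chip A the difference gave 0.0318. Of the probes that followed a 2-fold higher probe of chip B, 5.65% were higher themselves, against 1.71% of all. None of the probes that followed the 152 lower ones was lower, against 0.772% of all, a share so small that none among 152 says little. Within 20 probes, 51 of the 152 lower probes had another lower one and 263 of the 336 higher probes another higher one. No share over all probes was computed for that window. On chip A the shares for the following probe were 5.78% against 5.45% for higher and 4.46% against 3.87% for lower probes. After a running median of 51 probes along this order was removed from the difference, 257 probes were higher and 141 lower on chip B, of which 216 and 124 were among the 336 and 152. On chip A 1152 were then higher and 602 lower.

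**Figure D5:**
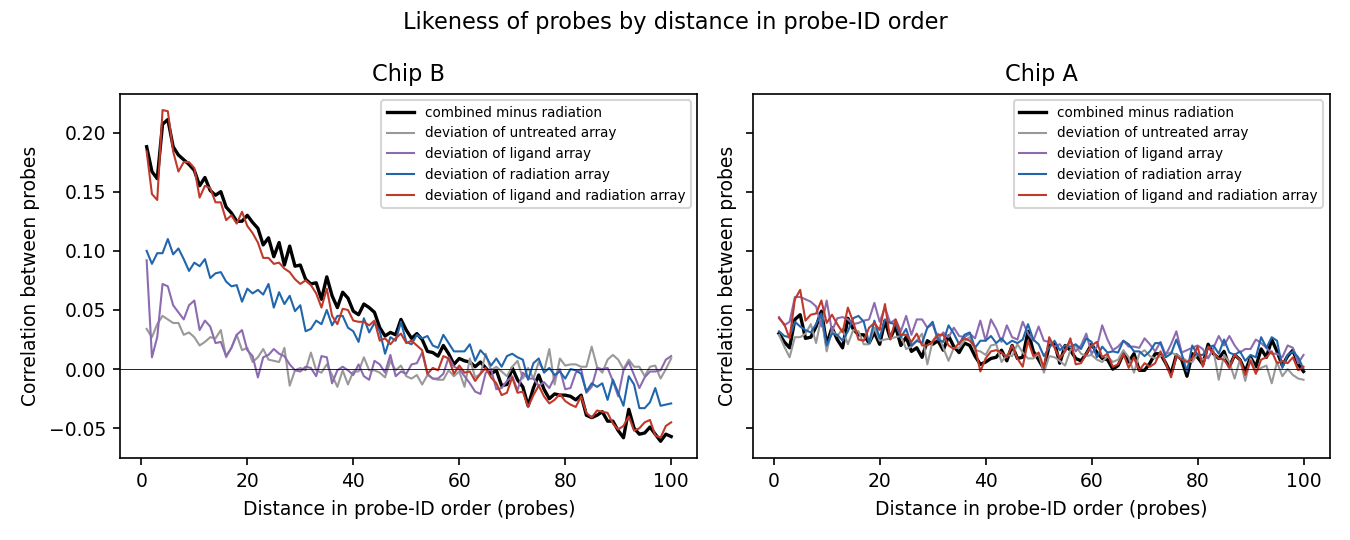
Correlation across probes (vertical) between values a given distance apart in probe-ID order (horizontal, 1 to 100 probes), for the difference combined minus radiation (black) and for each array's deviation from the mean of the other 3 arrays of its chip. On chip B the black line starts at 0.188 and the combined array's line runs with it, while on chip A it starts at 0.030.

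Beside the other pairs of arrays, the number of probes past 2-fold in either direction was 488 (2.48%) on chip B, where the other 5 pairs gave 230 to 507. The pair of the combined and the ligand array gave 507, and that of the ligand and the untreated array 302 (1.53%). On chip A it was 1836 (9.32%), against 674 to 1551 for the other 5 pairs, of which the ligand and the untreated array gave 674 (3.42%). These pairs share arrays with one another and were not compared by a test.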

How the data were processed

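One array per treatment and chip was analysed, with treatment and chip taken from the titles. Per the labels' protocols, antisense RNA amplified from 5 µg of total RNA with an oligo(dT) primer was labelled with Cy3. The deposited files hold 1 linear intensity per probe, without background or detection values. The scanner and image software are not given in the sources. Intensities were log2-transformed and quantile-normalized over the 4 arrays of each chip (limma 3.58.1, R version 4.3.3), and probes marked as not detected on any array were left out. The deposited score table served as an alternative. Against these log2 intensities each of its columns was a straight line (r at least 0.999997). Its medians were 0 (radiation) and 0.28 (combined) on chip B, and 0 and -0.41 on chip A, so its direction is known but its centring differs between arrays. A score unit was 1.41-fold to 1.59-fold, depending on the array.

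A probe was counted at 2-fold or more, with no test. Named probes were the first 2 per direction and chip, by the smallest difference over 3 scalings, among probes above the chip's median level, with at least 10% of the spots of both arrays dimmer, and at 2-fold under quantile, median and cyclic loess scaling. Comparison, rule and lists were chosen with earlier results of these data known. Counting was tried on simulated arrays with 200 probes raised or lowered by 4-fold or 8-fold. Differences so far past the threshold check that the count works and not its precision in these data. Precision is limited by having 1 array per side, and p-values were not computed.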

Additional observations from a re-analysis of the deposited data

Results flagged for a closer look

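The ligand could be compared with its absence in irradiated and in unirradiated cells on arrays that are not shared. On chip B 17 probes were at least 2-fold apart in both comparisons but in opposite directions, 6 of them lower without and higher with radiation, against 11 probes higher and 9 lower in both. The 17 are 3.48% of the 488 probes past 2-fold with radiation, beside 1.53% of all 19699 probes past 2-fold without it. They are 5.63% of the 302 without it, beside 2.48% of all probes past 2-fold with it. These shares of all probes count either direction, while the 17 are opposite only and are 0.0863% of all. On chip A 73 probes went opposite ways, 45 of them lower without and higher with radiation, against 20 higher and 31 lower in both. The 73 are 3.98% of the 1836 with radiation, beside 3.42% of all 19696 probes past 2-fold in either direction without it. They are 10.8% of the 674 without it, beside 9.32% of all past 2-fold with it. Of all probes of the chip they are 0.371%. With 1 array per treatment and chip the difference between irradiated and unirradiated cells was not tested. The dim radiation array enters the values of chip A.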

How the results depend on the processing

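The 8 named probes were chosen for their direction under quantile, median and cyclic loess scaling, and the level filters leave their values as they are. Direction was also the same with the compared arrays normalized alone, normexp, the running median and the deposited scores. These alternatives rework the same intensities, and on each array the scores are a straight line of the log2 values. For differences this large an unchanged direction was close to fixed in advance and is no separate support. In log2 units the widest range was 6.80 to 8.57, for obshum40K:B#29304. Without replicates no array could be left out, and the gene lists were not evaluated. No paired analysis was possible because each treatment has 1 array per chip. Counts at 2-fold stayed within 1.5 times under median scaling and under quantile normalization of the compared arrays alone, and with the running median removed. Under cyclic loess they did too, except for 505 lower probes on chip A. With normexp and an offset of 50, 508 probes were higher on chip B (77.3% of those past 2-fold), and on chip A 632 were higher and 341 lower. Filters leave fewer probes by construction. The brighter 50% held 121 higher and 27 lower on chip B (81.8% higher) and 508 and 307 on chip A. The brightest 25% held 59 and 21 (1.2% and 0.426% of its probes), and 351 and 176 (7.13% and 3.57%). Spots in the upper 50% of both arrays gave 57 and 19 (0.673% and 0.224%), and 360 and 203 (4.37% and 2.46%). A filter chosen after seeing the data kept spots with at least 10% of the others dimmer on both arrays. It gave 174 and 37 (1.04% and 0.22%, with 82.5% higher), and 664 and 433 (4.01% and 2.61%). In the deposited table of scores, 2985 probes were at least 1 unit higher and 487 lower on chip B (86.0% higher). On chip A 4320 were lower, which left 23.2% higher against 58.4% in log2 units. There a unit is less than 2-fold, and the median score difference was 0.17 on chip B and -0.41 on chip A. Which array stood apart moved by over 1.5 times in 4 counts. Under cyclic loess both unirradiated arrays were nearer to the combined array for 27 higher probes of chip B and 148 lower ones of chip A, and nearer to the radiation array for 44 lower ones of chip B. Under median scaling they were nearer to the radiation array for 171 lower ones of chip A.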
